A study of Mus musculus with 10 samples.

Results

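Von Willebrand factor (Vwf) and 6 other endothelial genes of clotting and fibrinolysis were followed in mouse liver: Adamts13, F8, Thbd, Procr, Tfpi and Plat. The 7 genes were taken by symbol from 55385 measured gene IDs, and all 7 were found. The set was put together with earlier results of these data known, among them a lower Vwf. RNA of frozen whole liver was sequenced in 10 libraries, 5 labelled control (genotype Ctrl) and 5 labelled Alk1-HEC-KO (genotype KO). The series title names Alk1, an alias of Acvrl1, as the gene knocked out. The labels state no treatment, and they do not spell out HEC. The Cre driver or other means of deletion, and the age, sex and strain of the mice, are not given in the sources used here. Whether each library is its own animal is not stated, so the p-values rest on the spread among these libraries alone, which may be technical.

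Resting endothelium keeps blood fluid and holds the means to stop bleeding. It stores VWF, the long multimeric protein that tethers platelets and carries factor VIII, in Weibel-Palade bodies, and it shows thrombomodulin and the protein C receptor on its surface, which turn thrombin to an anticoagulant role. In liver, sinusoidal endothelium is a known main source of factor VIII and normally holds little VWF, which is found mostly in larger vessels, while ADAMTS13, the protease that trims VWF, comes largely from stellate cells.

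The 7 genes, with their GENCODE M21 positions on build GRCm38, are Vwf (ENSMUSG00000001930.17, chromosome 6, 125546774 to 125686679, plus strand), F8 (ENSMUSG00000031196.13, chromosome X, 75172715 to 75382615, minus strand) and Plat (ENSMUSG00000031538.6, chromosome 8, 22757727 to 22782844, plus strand). The other 4 lie on chromosome 2. They are Adamts13 (ENSMUSG00000014852.16, 26973416 to 27009628, plus strand), Tfpi (ENSMUSG00000027082.15, 84432855 to 84476775, minus strand), Thbd (ENSMUSG00000074743.4, 148404466 to 148408188, minus strand) and Procr (ENSMUSG00000027611.12, 155751117 to 155755471, plus strand). The counts cover annotated exons, and no exon of the 7 overlaps one of another gene.

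Totals were even, from 20907368 to 21556461 estimated counts per library. Acvrl1, the gene named as knocked out, was not lower in the libraries so labelled. Its level in TPM (transcripts, scaled for their length, per fixed library total) averaged 0.669 ± 0.331 in controls and 1.36 ± 0.331 in Alk1-HEC-KO libraries (SD, n = 5). On counts its log2 fold change was 0.99, and it was not called (edgeR, adjusted p = 0.336). The second group is therefore called labelled knockout, and every direction rests on the label. A level summed over all exons cannot tell whether 1 of them is missing, so these values do not settle whether the labels hold. Hepatocyte markers were abundant in every library, with a sum over 5 matched genes of 43500 to 78900 TPM. Saa1, an acute phase gene, stood above 1000 TPM in control library 4 and labelled knockout libraries 4 and 5. Fos, an immediate early gene, stood above 20 TPM in control libraries 1 and 2.

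None of the 7 genes was called. Of these, 5 had enough counts to be tested, and 0 of those 5 had an adjusted p under 0.05 (edgeR quasi-likelihood test, Benjamini-Hochberg over 12872 genes), where 0.357% of all tested genes did (0.186% higher and 0.171% lower). The TPM of the groups overlapped for each of the 7, so 0 of 7 stood apart, against 1.62% of all tested genes (1.31% higher). DESeq2 and limma on log2 TPM also called 0 of the 5. An unadjusted p under 0.05 was found for 2 of them, Vwf and Thbd, against 8.44% of all tested genes. The median log2 fold change of the 5 was -0.02, that of all tested genes 0.00.

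**Figure D1:**
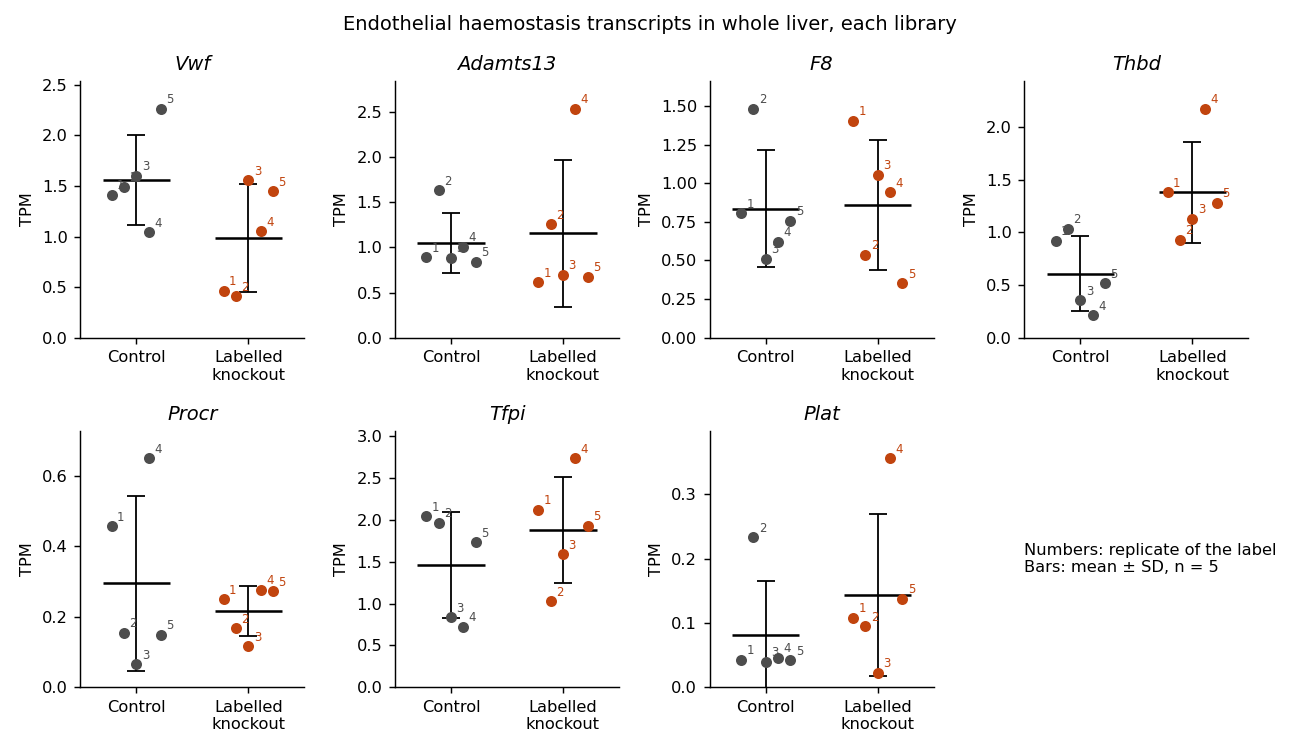
TPM (vertical axes, linear from 0) of the 7 genes in the 5 control and 5 labelled knockout libraries. Each point is 1 library, numbered by its replicate label, with mean and SD as bars (the lower bar of Plat in controls ends at the axis). Thbd lies higher and Vwf lower on average in the labelled knockout, and the 2 groups share part of their range for each gene.

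Vwf, the platelet-tethering protein, had estimated counts of 86, 98, 45, 35 and 82 in control libraries 1 to 5 and of 25, 13, 26, 45 and 48 in labelled knockout libraries 1 to 5. The highest labelled knockout libraries, 4 and 5, reached the lowest controls, 3 and 4, so the groups overlapped. Labelled knockout over control gave a log2 fold change of -1.16 (standard error 0.39, 95% interval -1.99 to -0.32). Adjusted over all genes it missed the threshold (edgeR, unadjusted p = 0.0103, adjusted p = 0.379). In bulk tissue, fewer cells of a type and less RNA per cell cannot be told apart. Without the 3 libraries with high Saa1 the log2 fold change was -1.96 (edgeR, adjusted p = 0.053), and without the 2 with high Fos it was -0.84 (adjusted p = 1.0).

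The size of the Vwf difference depended on the scale. In TPM, the control libraries held 1.41, 1.49, 1.60, 1.04 and 2.26 and the labelled knockout libraries 0.46, 0.41, 1.56, 1.05 and 1.45. Labelled knockout libraries 1 and 2 lay below every control, while the other 3 lay among them. Means were 1.56 ± 0.445 and 0.987 ± 0.535 TPM (SD, n = 5), and the difference was within the spread (exact two-sided permutation p = 0.127). In log2 CPM (counts scaled to a common library size) the means were 1.68 ± 0.60 and 0.50 ± 0.79 (exact permutation p = 0.0397).

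The gap between counts and TPM reflects the transcript length to which the counts were assigned. GENCODE lists 11 Vwf transcripts, from 334 to 8834 bases, the longest being the full-length messenger. Dividing the count by the TPM, on a scale set by genes with 1 annotated transcript, gives the mean length behind each TPM value. For Vwf it was 3220, 3790, 1380, 1920 and 1900 bases in the controls and 2890, 1860, 966, 2210 and 1620 bases in the labelled knockout. No library came near the 8834 bases of the full-length transcript, so a large part of the Vwf TPM was assigned to shorter annotated transcripts. This length did not differ between the groups beyond its spread (means 2440 ± 1010 and 1910 ± 714 bases, exact permutation p = 0.341). It varied between libraries by a SD of 0.59 on the log2 scale, more than for 99.1% of 11461 tested genes. Those genes were not matched to Vwf for counts or number of annotated transcripts. With an offset for this length in the count test, the log2 fold change of Vwf was -0.73 (edgeR, adjusted p = 0.711).

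**Figure D2:**
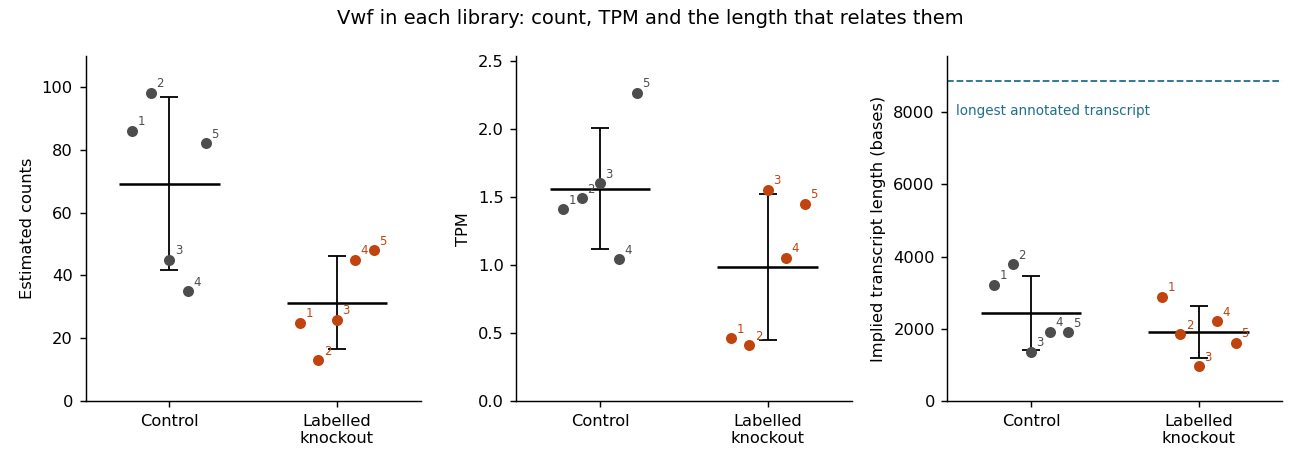
Estimated counts, TPM and implied mean transcript length in bases (vertical axes, linear from 0) of Vwf in each library, with mean and SD as bars and replicate labels as numbers. The dashed line marks the longest annotated transcript, 8834 bases. All 10 libraries lie between 966 and 3790 bases.

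Adamts13, which cleaves VWF multimers, did not pass the test. Its TPM were 0.89, 1.63, 0.88, 1.01 and 0.84 in the controls and 0.61, 1.26, 0.70, 2.54 and 0.68 in the labelled knockout. Labelled knockout library 4 stood highest of all 10, and libraries 1, 3 and 5 of that group lay below every control. The log2 fold change on counts was -0.03 with a 95% interval from -0.65 to 0.59 (edgeR, adjusted p = 0.983), without labelled knockout library 4 it was -0.42, and without labelled knockout libraries 2, 4 and 5 it was -0.50. Labelled knockout library 4 also held the highest sum over 10 stellate cell markers, 240 TPM. The lowest labelled knockout library held 83.2 TPM and controls 108 to 176 TPM. This was not particular to stellate cells: its sums over pan-endothelial (85.2 TPM), sinusoidal (114 TPM) and Kupffer cell markers (338 TPM) were also the highest. The part of stellate cell RNA in the Adamts13 values was not tested.

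F8, the cofactor that speeds the activation of factor X, had similar means in the 2 groups. Counts were 115, 199, 78, 83 and 108 in the controls and 198, 72, 139, 136 and 54 in the labelled knockout. High and low libraries occurred in both groups, whose ranges, 78 to 199 and 54 to 198 counts, overlapped widely. Means were 0.835 ± 0.380 and 0.858 ± 0.420 TPM (exact permutation p = 0.921). The log2 fold change was -0.02 with a 95% interval from -0.72 to 0.68 (edgeR, adjusted p = 0.99). The interval allows differences in either direction, and with the file number run as covariate the estimate was 0.41. Its implied length stayed between 7490 and 7930 bases in every library, so counts and TPM of F8 carried the same pattern.

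Thbd, encoding thrombomodulin, was the member with the largest positive estimate. Its TPM were 0.92, 1.03, 0.35, 0.21 and 0.52 in the controls and 1.38, 0.93, 1.13, 2.18 and 1.28 in the labelled knockout. Labelled knockout library 2 lay between the 2 highest controls, and the other 4 lay above all controls. Means were 0.609 ± 0.355 and 1.38 ± 0.477 TPM, a ratio of 2.27 (exact two-sided permutation p = 0.0159, unadjusted). By the same test 6.04% of all tested genes had a p under 0.05. On counts the log2 fold change was 1.16 (standard error 0.39, 95% interval 0.31 to 2.00), short of the threshold (edgeR, adjusted p = 0.393). Thbd has 1 annotated transcript, so the length question does not arise for it.

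The Thbd estimate moved with the libraries included. Without the 3 libraries with high Saa1 the log2 fold change was 0.54, and without the 2 with high Fos it was 1.79 (edgeR, adjusted p = 0.988 and 0.21). Thrombomodulin is also made by myeloid cells. The sum over 8 recruited leukocyte markers, which include lymphocyte and pan-leukocyte genes (Cd3e, Cd79a, Ptprc) beside myeloid ones, was 2.83 to 6.29 TPM in controls and 6.71 to 24.8 TPM in the labelled knockout, and that over 8 Kupffer cell markers was 106 to 170 and 163 to 338 TPM. None of these markers was called among 13 tested, and none was at 0 in all libraries. All 13 pointed higher, with a median log2 fold change of 0.76 for 8 Kupffer cell markers and 1.19 for 5 leukocyte markers. Of these, 7 and 3 had an unadjusted p under 0.05 (edgeR), against 8.44% of all tested genes. The markers were chosen with earlier results of these data known. Their part in the Thbd values was not tested.

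Procr, the endothelial receptor for protein C, was close to the detection limit. It had 9, 4, 2, 6 and 3 counts in the controls and 7, 4, 3, 8 and 3 in the labelled knockout, too few to pass the count filter. The groups overlapped. The ratio of summed counts, scaled by library totals, was 1.05 with a 95% exact interval of 0.574 to 1.92, which covers counting error only. Neither a 1.5-fold rise nor a 1.5-fold fall could be seen at this depth.

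Tfpi, the inhibitor of the tissue factor and factor VIIa complex, had TPM of 2.04, 1.96, 0.84, 0.72 and 1.73 in the controls and 2.12, 1.03, 1.59, 2.73 and 1.93 in the labelled knockout. Control libraries 3 and 4 were lowest and labelled knockout library 4 highest, with the other 7 between 1.03 and 2.12 TPM. The log2 fold change was 0.27 with a 95% interval from -0.36 to 0.90 (edgeR, adjusted p = 0.841).

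Plat, tissue plasminogen activator, starts fibrinolysis and was the least abundant of the 7. It had 3, 10, 2, 2 and 2 counts in the controls and 5, 4, 1, 17 and 7 in the labelled knockout, and was not tested. Control library 2 held 10 of 19 control counts and labelled knockout library 4 held 17 of 34. The ratio of summed counts was 1.80 (95% exact interval of counting 0.998 to 3.34), and the TPM of the groups differed by less than their spread (exact permutation p = 0.405).

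By mean TPM in controls, which is scaled for length, the order was Vwf 1.56, Tfpi 1.46, Adamts13 1.05, F8 0.835, Thbd 0.609, Procr 0.295 and Plat 0.0808. In the labelled knockout it was Tfpi 1.88, Thbd 1.38, Adamts13 1.16, Vwf 0.987, F8 0.858, Procr 0.217 and Plat 0.144. Mean ± SD ranges of neighbours overlapped in both orders, except for F8 and Procr in the labelled knockout.

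The libraries fall into 3 runs of close numbers in the deposited table headers, whose meaning the labels do not give. A new run was begun where the next number was more than 3 higher. The third run holds only labelled knockout libraries, and the first and the second hold 1 each. In the first run Vwf averaged 2.13 log2 CPM in 2 controls and stood at 0.31 in labelled knockout library 1. In the second it averaged 1.37 in 3 controls and stood at 0.32 in labelled knockout library 3, while TPM there were 1.64 and 1.56. Thbd was 1.66 and 2.17 log2 CPM in the first run and 0.37 and 1.74 in the second. The count-scale directions were thus the same within both runs, without a test at 1 library each.

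Promoter windows were at hand for 4 of the 7 genes in the RefSeq table of build GRCm38.p6. Of these, 2 are shown, those of Adamts13 and Tfpi. The windows of F8 and Procr lie wholly or partly in an annotated untranslated region and were left out. With group means subtracted, Tfpi had a Pearson r of 0.87 with Thbd and 0.73 with F8 over the 10 libraries (Spearman rho 0.83 and 0.70), and Adamts13 0.31 and 0.06 (0.25 and -0.08). Adamts13 and Tfpi had an r of 0.43 with each other (rho 0.32). These are descriptions without a test, over values that share libraries and scaling. Each window holds the bases before the transcription start, ended where the first annotated exon begins, at chr2:26973166-26973415 (plus strand) for Adamts13 and chr2:84476776-84477009 (minus strand) for 1 of 2 starts of Tfpi. Capitals mark the letters GGAA (the core bound by ETS factors), GATA (GATA factors) and CACCC (KLF factors) on either strand.
Adamts13: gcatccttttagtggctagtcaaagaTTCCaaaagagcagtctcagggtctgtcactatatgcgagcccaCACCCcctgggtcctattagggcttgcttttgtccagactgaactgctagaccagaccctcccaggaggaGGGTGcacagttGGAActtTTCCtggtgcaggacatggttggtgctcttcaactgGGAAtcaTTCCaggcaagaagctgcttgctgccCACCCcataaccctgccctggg
Tfpi: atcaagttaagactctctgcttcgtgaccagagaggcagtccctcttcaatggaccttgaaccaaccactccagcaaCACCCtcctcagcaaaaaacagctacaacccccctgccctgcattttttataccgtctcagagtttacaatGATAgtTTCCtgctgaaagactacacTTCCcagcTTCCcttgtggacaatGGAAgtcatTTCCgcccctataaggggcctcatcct
GGAA occurred 5 times in each window, CACCC 3 times in Adamts13 and once in Tfpi, and GATA in Tfpi only. No match overlapped another motif. These letters are common: 93.4%, 52.0% and 53.6% of 32851 windows of 250 bases held GGAA, CACCC and GATA. A match is a description and not evidence of binding.

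Because most other endothelial markers pointed higher in the labelled knockout, each gene was also set against 12 pan-endothelial markers of the same library, as log2(TPM + 0.1) minus the markers' mean. None of the 12 markers was called, 10 pointed higher, and their mean was 1.26 ± 0.39 in controls and 1.88 ± 0.42 in the labelled knockout. On this scale Vwf stood at -0.57 ± 0.53 in controls and -1.93 ± 0.86 in the labelled knockout, 2.56-fold lower (exact two-sided permutation p = 0.0317, unadjusted). The groups still overlapped, so 0 of the 7 genes stood apart here, against 8.5% of all tested genes (8.35% lower). The measure shifts most genes down, with a median of -0.56 over all tested genes, and 33.4% of them had a p under 0.05. The difference of -1.36 for Vwf was exceeded downward by 1.86% of tested genes, which were not matched to Vwf for level. Vwf was chosen with its lower level in these data known, so neither this rank nor its p-value is independent support. Without control library 3, control library 5 or labelled knockout library 1 the exact permutation p was 0.0635, 0.0635 and 0.0556.

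Among the other members, F8 differed by -0.63 (exact permutation p = 0.0397), close to the median of all genes, and Adamts13 by -0.65 (p = 0.0952). Thbd differed by 0.55 (exact permutation p = 0.0556), Tfpi by -0.23, Procr by -0.74 and Plat by -0.22, none with a p under 0.05. Against 10 markers of sinusoidal endothelium, whose mean differed little (2.44 ± 0.49 and 2.56 ± 0.47), Thbd stood at -3.10 ± 0.35 in controls and -2.04 ± 0.31 in the labelled knockout. There the groups did not overlap (exact permutation p = 0.0079, the lower limit for 2 groups of 5), as for 0.901% of all tested genes. Vwf differed by -0.85 against the same markers (exact permutation p = 0.143) and F8 by -0.13.

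**Figure D3:**
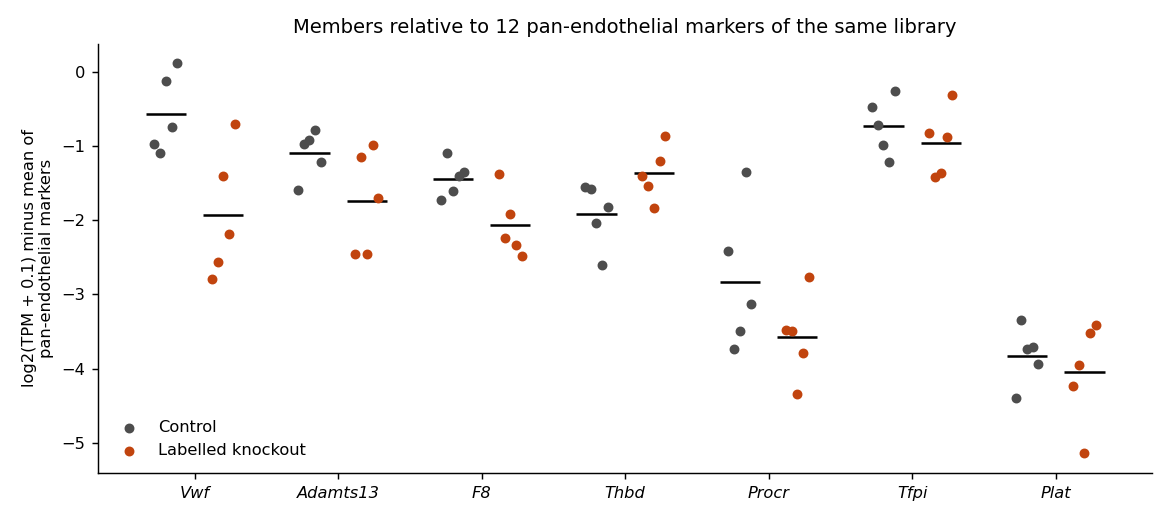
Level of each gene relative to 12 pan-endothelial markers of the same library, in log2 units (vertical axis), with 1 point per library and the group mean as a line. Vwf has the largest downward shift, from a mean of -0.57 to -1.93, and Thbd is the only gene whose mean is higher in the labelled knockout.

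Vwf and Thbd together parted the groups. This ratio was chosen after the values were seen and has no test. Vwf counts per Thbd count were 1.32, 1.46, 1.67, 2.50 and 2.22 in control libraries 1 to 5 and 0.26, 0.22, 0.36, 0.29 and 0.49 in labelled knockout libraries 1 to 5. Every control held more Vwf than Thbd counts and every labelled knockout library fewer, with means of 1.83 ± 0.506 and 0.324 ± 0.106 (SD, n = 5). The difference in log2 CPM was -2.40. Within the first run the controls held 1.32 and 1.46 against 0.26, and within the second 1.67, 2.50 and 2.22 against 0.36. In TPM the groups came closer, with 1.44 in the lowest control and 1.38 in the highest labelled knockout library.

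Of the 10 ratios between the 5 tested genes, 2 did not overlap between the groups, Vwf over Thbd and Thbd over Tfpi, in log2 CPM and in TPM alike. Thbd over Tfpi was -0.39 ± 0.43 log2 units in controls and 0.58 ± 0.35 in the labelled knockout. Ratios to Thbd or Vwf parted the groups for other genes too. In log2 CPM, 13.6% of all other tested genes did so in their ratio to Thbd, and 6.84% in their ratio to Vwf. Vwf over F8, the pair that circulates as a complex, overlapped, with -0.76 ± 0.36 and -1.84 ± 1.05.

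**Figure D4:**
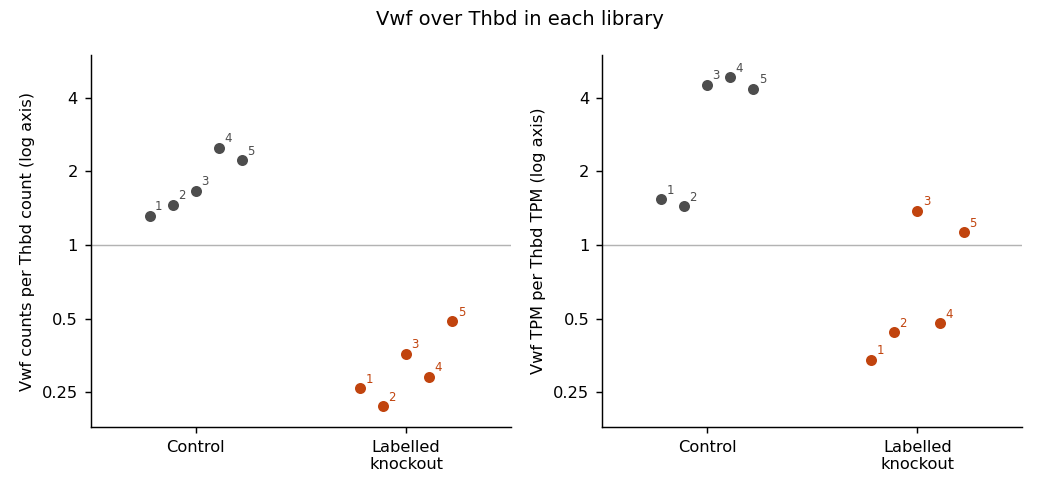
Vwf relative to Thbd in each library, as a ratio of estimated counts (left) and of TPM (right), both on log axes, numbered by replicate label. The 5 controls lie at 1.32 or above and the 5 labelled knockout libraries at 0.49 or below in counts, while in TPM the groups nearly meet, at 1.44 and 1.38.

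Platelets and their precursors also carry Vwf. Their 12 markers were all measured and none was at 0 in all libraries, but only 3 had counts enough to be tested, and none of those was called. Their summed level was 7.84 to 9.40 TPM in controls and 9.21 to 25.4 TPM in the labelled knockout, with labelled knockout library 4 at 25.4 and the other 4 at 10.1 or below. By group mean the largest term of the sum was Clec1b, at 3.97 ± 0.573 TPM in controls and 5.55 ± 2.43 TPM in the labelled knockout. Whether other liver cells add to it was not tested. The 3 tested markers, Clec1b among them, pointed higher, while the untested ones, with few counts, went both ways. Among these, Ppbp had 23 counts in controls and 54 in the labelled knockout, and Tubb1 18 and 11. The part of platelet RNA in the Vwf values was not tested. Of 7 tested large vessel and venous markers, Vwf among them, 1 was called, Emcn, which rose from 1.24 ± 0.694 to 5.03 ± 1.27 TPM (edgeR, adjusted p = 0.00453). All 6 tested capillary markers pointed higher and 4 were called, where 0.186% of all tested genes were called higher. This list was chosen with earlier results of these data known, so its share is not independent support.

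Other genes of the same functions were taken from 8 lists of 84 genes, of which 83 were measured and 71 tested, the 5 tested members included. None was called in either direction, and 12, Vwf and Thbd among them, had an unadjusted p under 0.05 (edgeR), where 8.44% of all tested genes did. These lists were chosen with earlier results of these data known. The smallest adjusted p was 0.147. Of the 71, 44 pointed higher and 27 lower. Their median was 0.05 on the log2 scale, against 0.00 for all tested genes.

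For Weibel-Palade storage and release, 0 of 13 tested genes was called and the median was 0.02. Rab27a, a small GTPase of these granules, averaged 0.537 ± 0.168 TPM in controls and 0.843 ± 0.148 TPM in the labelled knockout (log2 fold change 0.63, standard error 0.27). Unc13d, a priming factor for granule release, had a log2 fold change of 0.86 (0.35) on counts but 0.317 ± 0.124 and 0.301 ± 0.0574 TPM. Both had adjusted p values above 0.5 (edgeR, 0.55 and 0.519). Vwf, the main cargo, had the lowest estimate of this list.

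Of the anticoagulant genes, Thbd and Tfpi included, 0 of 11 was called (median 0.05), and of the cofactors with their cargo receptors 0 of 8 (median 0.03). Tfpi2, a relative of Tfpi, averaged 46.3 ± 8.26 and 43.9 ± 18.8 TPM, and Serpina10, the protein Z-dependent inhibitor made by hepatocytes, 124 ± 74.5 and 152 ± 54.1 TPM. F5, the cofactor factor V, averaged 50.1 ± 17.0 and 44.1 ± 15.1 TPM. Lman1, the receptor that carries factors V and VIII out of the endoplasmic reticulum, averaged 53.3 ± 17.5 and 49.3 ± 15.2 TPM. Of the thrombin receptor list 0 of 3 tested genes was called, and F2r, the main thrombin receptor, averaged 7.51 ± 2.81 and 7.5 ± 1.98 TPM. Gna13, a G protein subunit downstream of it, had a log2 fold change of -0.17.

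In fibrinolysis 0 of 9 tested genes was called, with a median of 0.06. Plaur, the urokinase receptor, averaged 0.285 ± 0.261 and 0.621 ± 0.257 TPM (log2 fold change 1.13, standard error 0.50, edgeR adjusted p = 0.577). Anxa2, a surface docking site for Plat and plasminogen, averaged 4.13 ± 1.42 and 5.67 ± 3.6 TPM. Plau, the other plasminogen activator, and Plat itself had too few counts to be tested.

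Genes by which endothelium restrains platelets pointed both ways, and 0 of 5 was called (median 0.32). Nt5e, the ectonucleotidase CD73 that makes adenosine, averaged 0.630 ± 0.177 TPM in controls and 0.318 ± 0.101 TPM in the labelled knockout. Its TPM did not overlap between the groups, as for 1.62% of all tested genes, and on counts it stood at -1.08 (log2 fold change, standard error 0.26, edgeR adjusted p = 0.147). Nos3, the endothelial nitric oxide synthase, averaged 0.584 ± 0.272 and 1.27 ± 0.426 TPM (log2 fold change 1.06, 0.33, edgeR adjusted p = 0.326).

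The list for clearance of VWF and factor VIII, receptors with the lectins Lgals1 and Lgals3, gave 0 of 10 called and a median of -0.03. Lgals3, a lectin reported to bind VWF, averaged 2.75 ± 0.756 and 5.64 ± 2.02 TPM (edgeR, adjusted p = 0.36), and the macrophage lectin Siglec1 0.469 ± 0.117 and 0.684 ± 0.246 TPM (adjusted p = 0.64). Among 12 regulators of endothelial haemostasis genes 0 was called, 9 pointed higher, and the median was 0.52. Klf4, a flow-responsive factor known to raise Thbd, averaged 0.328 ± 0.172 and 0.613 ± 0.102 TPM (log2 fold change 1.18, 0.42, edgeR adjusted p = 0.419). Mef2c averaged 0.237 ± 0.121 and 0.610 ± 0.152 TPM without overlap (1.13, 0.31, adjusted p = 0.259).

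**Figure D5:**
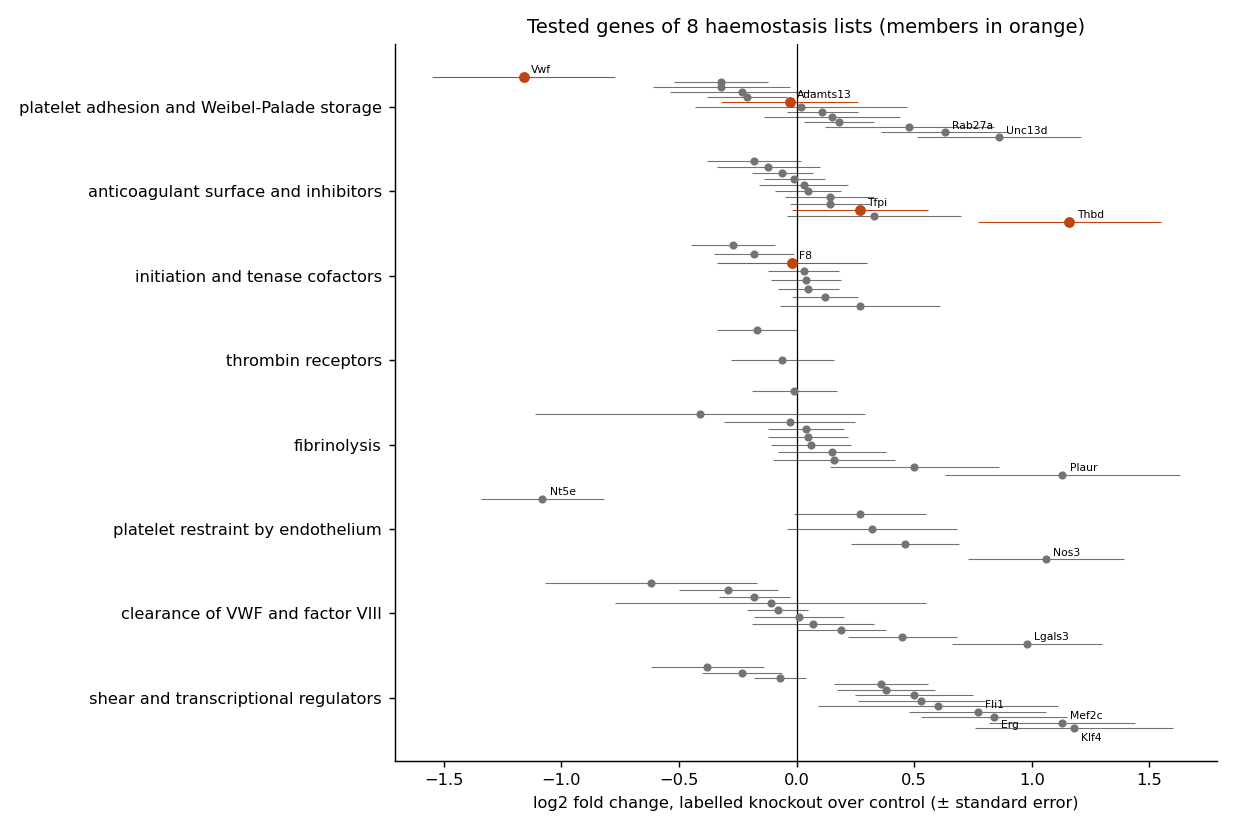
Log2 fold changes of labelled knockout over control (horizontal axis, with standard errors as bars) of the tested genes of 8 haemostasis lists, ordered by value within a list. The 5 tested members are in orange, and they and genes with an unadjusted p under 0.05 are named. Vwf at -1.16 is the lowest and Klf4 at 1.18 the highest, next to Thbd at 1.16, and none was called.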

How the data were processed

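Whole-liver RNA of 5 control and 5 Alk1-HEC-KO libraries was analysed. Per the submitters' processing notes, the tools were Trim Galore 0.6.4 and kallisto 0.4.6, with build GRCm38.p6. How transcripts were summed to genes and whether strand was used are not given in the sources used here. The estimated counts deposited by the authors were rounded and used for tests. Levels are the authors' deposited TPM. IDs were matched without version to GENCODE M21 (55144 of 55385). The members and lists were chosen with earlier results of these data known.

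Genes were filtered by filterByExpr, scaled by TMM and tested with edgeR 4.0.16 (robust quasi-likelihood, group as the only term), with Benjamini-Hochberg adjustment over 12872 genes and calls at 0.05. For single values, exact permutation tests (two-sided, unadjusted) were run on each of the 7 members. The edgeR and DESeq2 1.42.0 scripts were tested on simulated data. Implied length is count over TPM, scaled by 788 genes with 1 annotated transcript of at least 2000 bases. Named genes were all members, Acvrl1, called list genes, otherwise the 2 of each list with the smallest p, and the 3 genes most like Vwf. Emcn, Plau and the ratios between members were chosen once their values were known. Alternatives covered scaling, filter, tool (limma 3.58.1, DESeq2), left-out libraries, replicate numbers as a block and file number runs. Length offsets and fits without libraries high in Saa1 or Fos, or without the third run, were added after seeing the data. The symbols Clec4m and Tf had no match.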

Additional observations from a re-analysis of the deposited data

Results flagged for a closer look

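In 14 groups of 5 TPM values, 2 had a library far from the others. Adamts13 in control library 2 stood at 1.632 TPM, with the other controls between 0.84 and 1.01 TPM, although its 63 counts lay within the control range of 53 to 66. Plat in control library 2 stood at 0.233 TPM, from 10 counts, with the other controls at 0.046 TPM or below. Chance alone marks about 1 group in 20. Both values belong to the same library, which was also 1 of the 2 with high Fos, and the cause was not tested.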

How the results depend on the processing

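The log2 fold changes of Vwf (-1.96 to -0.39) and Thbd (0.54 to 1.79) kept their direction in 23 alternatives each without passing. Against 46 genes called, 119 were called without a count filter, 152 by DESeq2, 5 with the file number run as covariate, 30 and 17 without libraries high in Saa1 or Fos, and 18 without the third run. Leaving out 1 library gave 33 to 83 (83 without labelled knockout library 1). With the replicate number as a block, 40 genes were called, and Vwf and Thbd stood at -1.20 and 1.20 with no call changed. Same-numbered libraries correlated by -0.10 to 0.276. Without a test, these values cannot settle whether equal numbers mark pairs.

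Values near 0 changed sign. Adamts13 was 0.05 with library totals alone, 0.07 with length offsets and 0.02 by limma on log2(TPM + 1). F8 was 0.05, 0.41, 0.04, 0.31, 0.46 and 0.01 with totals alone, the run covariate, without high Saa1, without high Fos, without the third run and by limma on log2(TPM + 1), and Tfpi -0.01 without high Saa1. In place of TPM, log2 CPM gave -0.15 for Adamts13, -0.0875 for F8 and 0.0311 for Procr, and log2(TPM + 0.1) gave -0.0316 and -0.00963 for the first pair. For Vwf, log2 CPM gave -1.18 (exact permutation p = 0.0397). Leaving out 1 library gave log2 fold changes of -0.42 to 0.09 for Adamts13 and -0.28 to 0.23 for F8. TPM differences then ran from -0.24 to 0.25, -0.11 to 0.19 and -0.14 to 0.0101 for Adamts13, F8 and Procr.

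Relative to sinusoidal in place of pan-endothelial markers, Vwf was -0.85, F8 -0.13, Thbd 1.05, Tfpi 0.28 and Plat 0.28. A pseudocount of 1 brought Adamts13 (-0.45) and Plat (-0.39) to an exact permutation p of 0.0476 each, and moved Thbd from 0.55 to 0.10 (exact permutation p = 0.4127) and Vwf from -1.36 to -0.86 (p = 0.0317). Leaving out 1 library gave -1.66 to -1.14 for Vwf, -0.84 to -0.47 for Adamts13, -0.80 to -0.53 for F8, 0.38 to 0.67 for Thbd and -0.38 to 0.0503 for Plat. F8 lost its p under 0.05 without control library 2, 4 or 5 or labelled knockout library 2, 4 or 5. Thbd gained one without control library 1 or labelled knockout library 3, and Adamts13 without labelled knockout library 4. The cause was not tested. Depth limits Procr and Plat most, with 49 and 53 counts in all.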

Other observations

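Within the groups, several of the genes rose and fell together from library to library. After subtracting each group's mean from log2 CPM, Thbd and Tfpi had a Pearson r of 0.87 (Spearman rho 0.83, 10 libraries), Vwf and Thbd 0.86 (0.81), F8 and Tfpi 0.73 (0.70) and Vwf and Tfpi 0.66 (0.64). Adamts13 had an r of 0.06 with F8, 0.20 with Vwf, 0.31 with Thbd and 0.43 with Tfpi. The values share libraries and scaling, so they are a description with no test. Vwf and Thbd thus varied in the same direction within groups, while their group differences had opposite signs, -1.16 and 1.16.

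The 3 of 9805 genes most like Vwf by the same measure were Cbx8 (r = 0.92, rho = 0.79), Csf1r (0.91, 0.92) and Cd72 (0.90, 0.84). As the highest of so many they carry no test. Unlike Vwf they were not lower in the labelled knockout: in control and labelled knockout libraries, Csf1r averaged 5.75 ± 1.24 and 9.85 ± 2.34 TPM, Cd72 0.918 ± 0.327 and 2.12 ± 0.764 TPM, and Cbx8 2.56 ± 0.983 and 3.13 ± 0.508 TPM (SD, n = 5).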
